A study of Caenorhabditis elegans with 161 samples.

Results

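The 38 genes described here build and run the cilium, the microtubule-based antenna of sensory cells. They are the regulator daf-19, 3 kinesin-2 genes, 2 dynein-2 genes, 4 genes of intraflagellar transport (IFT) complex A, 13 of IFT complex B, 6 of the BBSome, 3 of the transition zone and 6 others with ciliary or dendrite roles. They were found by gene symbol, through the RefSeq locus tag, among the 20687 genes of the count tables. The rule uses gene names and roles and no threshold on measured values, but the genes were listed with earlier results of these data known.

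In C. elegans the ciliated cells are sensory neurons, which form cilia at the tips of their dendrites after they have stopped dividing. Kinesin-2 motors carry IFT trains outward along the ciliary microtubules, and dynein-2 carries them back. Complex B is known mainly for outward and complex A for return transport, the BBSome links membrane proteins to the trains, and the transition zone gates the ciliary base above the basal body, which is a modified centriole. DAF-19, a transcription factor of the RFX family, is known in worms to bind X-box motifs in the promoters of ciliary genes.

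Transcripts of whole C. elegans embryos were counted by CEL-Seq, a method that barcodes polyA RNA, amplifies it linearly and reads the 3' ends of transcripts. The main course holds 140 libraries: 20 strains, namely the laboratory strain N2 and 19 mutation-accumulation lines known by number, each sampled once at 0, 60, 180, 270, 440, 650 and 830 min after the 4-cell stage, from pools of 10 embryos kept at 20 °C. A second course holds 21 libraries of line 522, 3 at each of 7 time points, here called A to G after the order in their titles and set beside the 7 stages in that order, because the time field of 18 of the 21 contradicts the title. Adults were cut open to release the embryos, which were collected at the 4-cell stage, and no group was treated.

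The strain libraries held 5653 to 525902 gene counts (median 57199), and the repeats 58543 to 623958 (median 219346). A ciliary gene therefore had a few counts or none in most single strain libraries, and strain levels are given pooled over 20 libraries and as the lowest, median and highest library. No molecular identifiers are stated, so count intervals (95%, exact) cover counting error only. A p-value sets the difference between stages against the spread of these libraries. In the strains that spread also holds differences between strains. The labels do not say that pools came from separate cultures, so part of the spread may be technical. Markers of all neurons and of other tissues were present, with 15 of 16 pan-neuronal and all 8 body wall muscle, 8 epidermis and 8 intestine markers abundant enough to be tested in both courses. In such mixed tissue, fewer cells of a type and less RNA per cell cannot be told apart.

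Ciliary transcripts came as 1 pulse. Levels are in CPM, a gene's counts divided by all gene counts of the library and scaled to 1e6. Summed over the 38 genes, the 3 libraries of time point C held 137, 175 and 83.9 CPM and those of D 533, 415 and 518 CPM. At E the sum was 1897, 2119 and 1689 CPM, at F 853, 510 and 836 CPM, and at G 505, 725 and 481 CPM. Every E library lay above every other repeat library. The sum weighs abundant genes most. From C to D pooled CPM went from 48.3 to 201 for the kinesin-2 genes, 48.3 to 149 for daf-19 and 12.9 to 99.2 for the 6 others. The 17 genes of complexes A and B together held 25.8 and 41.6 pooled CPM. The BBSome, transition zone and dynein-2 sums went from 0 at C to 10.6, 6.81 and 4.54 at D. In the strains the pooled sum was 92.96 CPM for the 0 min libraries and 90.7 CPM for those of 60 min. It then rose to 149 CPM at 180, 359 CPM at 270 and 1720 CPM at 440 min, and came down to 688 CPM at 650 and 473 CPM at 830 min. The 20 libraries at 440 min ran from 890 to 2278 CPM (median 1463), and the lowest of them lay above the highest at 270 min (705 CPM) but below the highest at 650 min (1130 CPM).

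**Figure D1:**
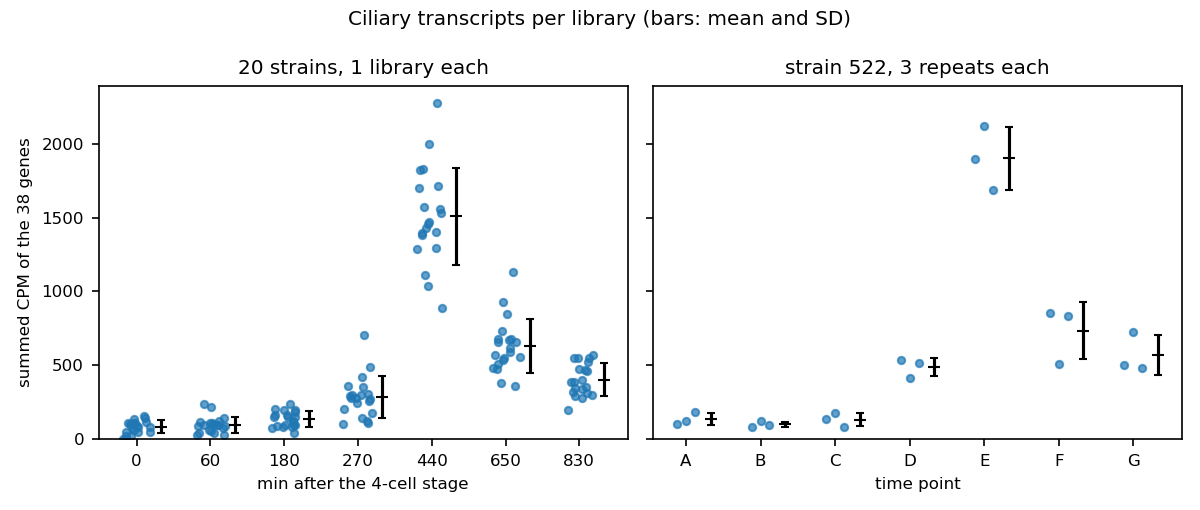
Summed CPM (linear axis) of the 38 ciliary genes in each library, by stage in the 20 strains (left) and by time point in the line 522 repeats (right). Points are libraries, and bars give the mean and SD of 20 or 3 libraries. The sum is highest at 440 min and at E, with 1897, 2119 and 1689 CPM in the 3 E libraries.

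Gene by gene the pulse fell on the same stage. Pooled CPM was highest at 440 min for 36 of the 38 genes in the strains, against 14.3% of the 11227 genes tested there. In the repeats it was highest at E for 34 of the 38, against 14.5% of the 10941 genes tested. The exceptions were osm-3 and che-12, highest at 650 min and at F, and che-2 and che-10, highest at F in the repeats alone. In the strains 19, 16, 12 and 2 of the 38 genes had no count over the 20 libraries of the first 4 stages, while from 440 min onward each gene was counted. Among the 36 genes highest at 440 min, the pooled CPM of the stage before was 0% to 47.1% of that level (median 9.26%), and that of the stage after was 0.650% to 85.6% (median 32.4%).

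**Figure D2:**
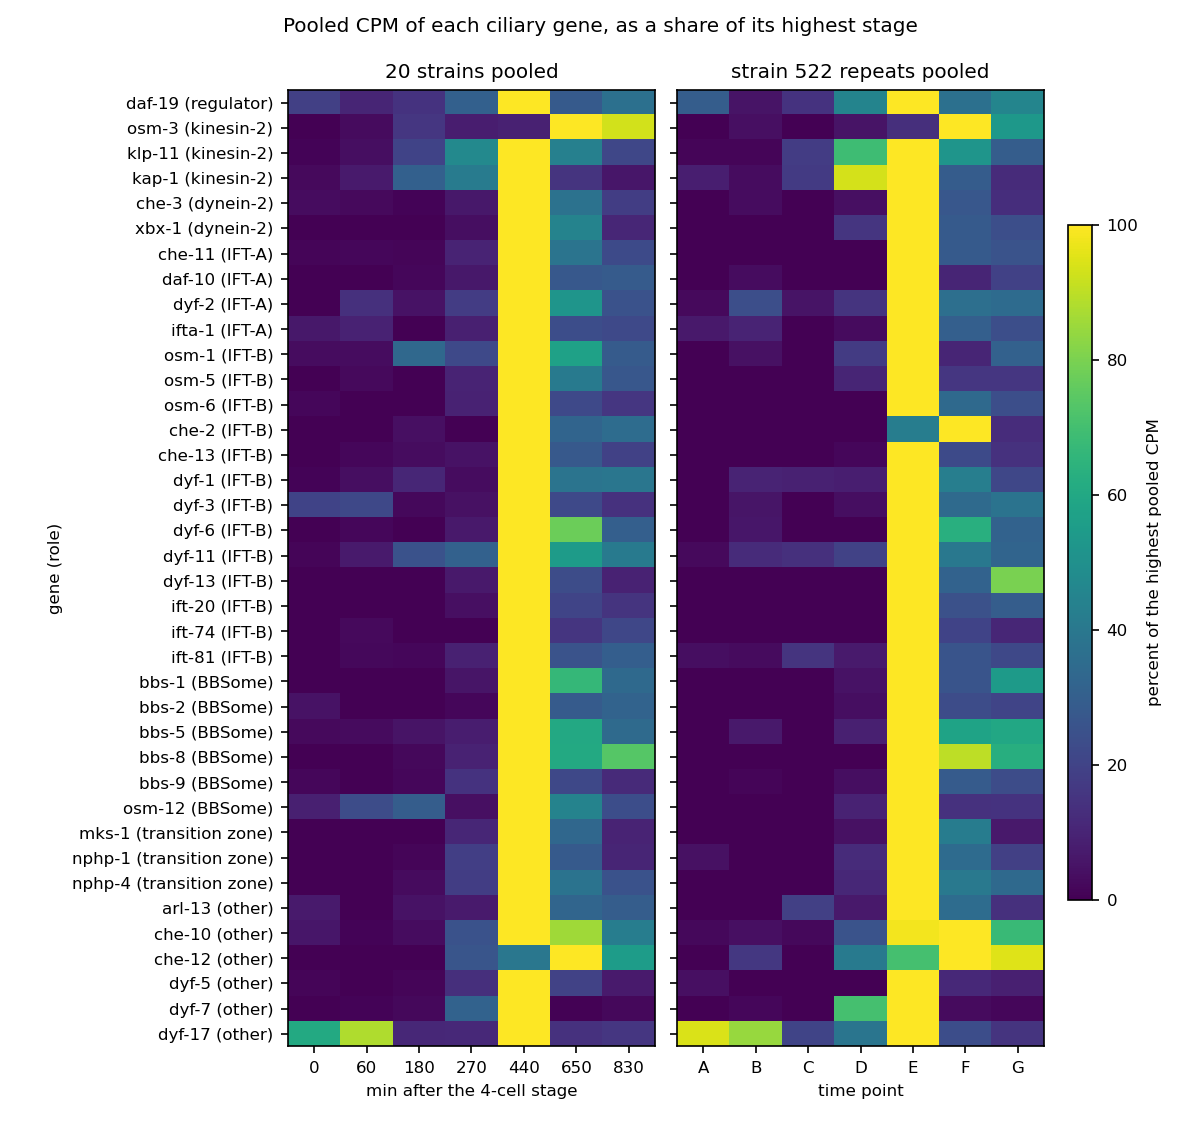
Pooled CPM of each of the 38 genes at each stage, coloured as a percentage of that gene's own highest stage, in the strains (left, min after the 4-cell stage) and in the line 522 repeats (right, time points A to G). A single bright column stands at 440 min and at E, where 36 and 34 of the genes are highest, and osm-3 and che-12 peak 1 stage later.

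The quasi-likelihood test of edgeR set each stage against the next over all genes with enough counts. A gene was called where its Benjamini-Hochberg adjusted p was below 0.05 and its fitted change reached 2-fold. Of the 38 genes, 35 could be tested in the strains (che-2, dyf-13 and xbx-1 had under 50 counts over the 140 libraries) and 34 in the repeats (che-2, xbx-1, nphp-4 and mks-1 had under 30). Fitted log2 fold changes are given later minus earlier, with their standard error (SE), after scaling of the libraries by TMM, and can differ from ratios of CPM. Adjacent comparisons share the libraries of the stage between them.

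Before 270 min few of the genes were called, and most had too few counts for a change to be seen. At 0, 60 and 180 min 33, 29 and 27 of the 38 had at most 3 counts over the 20 strains. At A, B and C 36, 32 and 36 of the 38 had at most 3 counts over the 3 libraries. Of the 35 tested, 2 rose from 0 to 60 min, where 16.5% of all genes rose, and none was called lower. From 60 to 180 min 4 rose and 3 fell, where 18.6% of all genes rose and 15.9% fell. In the repeats 2 rose and 1 fell from A to B (all genes, 21.5% and 6.89%), and 1 rose from B to C (7.79%). Each of these numbers called is a smaller share of the ciliary genes than of all genes tested. At such low counts that does not show that the genes were unchanged. RLE scaling in place of TMM moved the split of all calls, from 57.0% to 34.6% higher at 0 to 60 min, 53.9% to 64.7% at 60 to 180 min, 75.8% to 57.4% at A to B and 28.5% to 48.0% at B to C. With it the ciliary genes called at 0 to 60 min were 1 higher and 2 lower, the 2 being daf-19 and che-10. che-10 went from 14 to 2 counts over the 20 strains at that step (-1.54, SE 0.68, adjusted p = 0.0569), and its fall was called with RLE scaling (-1.92) and in a fit to the 2 stages alone (-1.42).

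The regulator daf-19 was already counted at the 4-cell stage. Its level at A was 84.4, 82.4 and 143 CPM and at B 8.77, 51.2 and 22.1 CPM, and these ranges did not overlap. It fell from A to B by 1.95 on the log2 scale (SE 0.46, adjusted p = 0.000159). In the strains the median library held 51.9 CPM at 0 min (range 0 to 84.8) and 30.5 CPM at 60 min (0 to 86.7), and daf-19 was lower at 60 min in 15 of 20 strains but was not called (-0.60, SE 0.31, adjusted p = 0.118). With RLE scaling (-1.02) and with DESeq2 (-1.06) that fall was called, and with RLE scaling daf-19 was also called higher from B to C (1.48). The 3' counts do not tell apart the isoforms of daf-19, of which the one named DAF-19C is known for ciliary gene control.

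The second early transcript was dyf-17. It had 21 and 28 counts over the 20 strains at 0 and 60 min, then 4 and 4 at 180 and 270 min, and 40 at 440 min. It fell from 60 to 180 min (-2.34, SE 0.47, adjusted p = 6.68e-06, lower in 10 strains and higher in 3). In the strains dyf-17 was thus high, low and high again. Its repeat counts ran 9, 11, 1, 8, 16, 4 and 2 from A to G, and 10 of the 11 at B were in replicate 3. The pools differ in depth, with 310259 gene counts at C and 1320948 at D. The C libraries held 0.00, 9.73 and 0.00 CPM, and no fall was called at any step from A to D. The repeats therefore do not settle whether it was low in between. The other 2 falls from 60 to 180 min were dyf-3, which codes for a complex B protein (9 counts to 1), and ifta-1 of complex A (4 counts to 0). With DESeq2 neither was called (adjusted p = 0.253 and 0.687), and with no filter on low counts edgeR did not call ifta-1 (0.0515).

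klp-11 had more counts at each stage from 0 to 440 min than at the stage before. It codes for a motor subunit of heterotrimeric kinesin-2. Its counts over the 20 strains at 0, 60, 180, 270 and 440 min were 3, 12, 74, 169 and 416. It was called higher at each of these 4 steps, the first with a count ratio in CPM of 4.34 (interval 1.17 to 23.96, adjusted p = 0.0235) and the second with a log2 change of 2.09 (SE 0.41, adjusted p = 6.04e-06). The call at the first step was lost with RLE scaling (adjusted p = 0.0783), with DESeq2 (0.393) and without the 8 libraries of which a rerun was deposited (0.0795). With RLE scaling the changes from 180 to 270 min (0.98) and from 270 to 440 min (0.91) came to less than 2-fold. In the repeats it was the gene called from B to C, with 2.19, 17.1 and 3.15 CPM at B against 56.5, 58.4 and 0.00 CPM at C (ratio of pooled CPM 11.6, interval 3.19 to 63.6, adjusted p = 0.00203), so the groups overlapped. Its partner kap-1, the accessory subunit of the same motor, rose from 60 to 180 min with 5 and 24 counts (1.46, SE 0.48, adjusted p = 0.00726). osm-1 and dyf-11, both of complex B, rose at that step with 1 to 11 and 5 to 19 counts. dyf-2 of complex A went from 0 to 10 counts between 0 and 60 min, at least 3.62-fold higher, and from 1 to 12 counts between A and B, and dyf-1 of complex B from 0 to 6 counts between A and B.

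Several of these early calls rest on few counts. DESeq2 called 1, 3, 1 and 1 genes at 0 to 60 min, 60 to 180 min, A to B and B to C, and its call at 0 to 60 min was a fall of daf-19. Without replicate 1 of the repeats the rise of klp-11 from B to C was not called (adjusted p = 0.222). The rise of dyf-2 from A to B was not called without replicate 1 (0.446) or 3 (0.0794), and that of dyf-1 was lost without any one replicate (0.0794 to 0.447).

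From 180 to 270 min 9 of the 35 genes rose and 1 fell, where 12.1% of all genes rose and 5.58% fell. From C to D 5 of 34 rose, where 11.7% of all genes rose, so that this count lies near the share of all genes. RLE scaling moved the split of all calls from 68.5% to 57.6% higher at the first step and from 83.9% to 59.5% at the second. The genes called in both courses were daf-19, klp-11, che-10 and dyf-7. dyf-7 codes for a zona pellucida domain protein that anchors dendrite tips while the cell body migrates away, and che-10 for a rootletin-like protein of the ciliary base. daf-19 held 24.2, 58.4 and 71.9 CPM at C and 147, 122 and 157 CPM at D, without overlap (1.85, SE 0.41, adjusted p = 0.000141), and 17 of 20 strains had more of it at 270 than at 180 min (1.02, SE 0.27, adjusted p = 0.00202).

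dyf-7 came on at this step. It had no count in the 3 C libraries and 41.8, 40.8 and 48.1 CPM at D, at least 4.62-fold higher. Over the strains it went from 3 to 40 counts (ratio of pooled CPM 13.65, interval 4.35 to 68.99, adjusted p = 5.47e-08), higher in 12 strains and lower in none. che-10 held 8.07, 0.00 and 0.00 CPM at C and 56.4, 40.8 and 19.2 CPM at D (ratio of pooled CPM 11.5, interval 1.97 to 464, adjusted p = 0.00163), and over the strains 8 and 57 counts (2.38, SE 0.49, adjusted p = 4.13e-05).

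Other rises from 180 to 270 min were small in counts. che-12, which codes for a TOG-domain protein of sensory cilia, went from 0 to 11, bbs-9 from 2 to 16, nphp-1 from 1 to 13, the kinase gene dyf-5 from 1 to 10 and osm-6 from 0 to 5, while osm-12 of the BBSome fell from 14 to 2. kap-1 rose from C to D, from 2 to 47 counts. DESeq2 called 3 genes at each of these steps, and leaving out replicate 1 or 3 of the repeats left 2 or 3 called from C to D. At C to D daf-19 (adjusted p = 0.060), che-10 (0.0554) and kap-1 (0.160) missed the threshold without replicate 1, and klp-11 (0.118) and kap-1 (0.392) without replicate 3. The fitted change of daf-19 from 180 to 270 min was under 2-fold with RLE scaling (0.84), with DESeq2 (0.87) and without the 8 rerun libraries (0.95).

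The step from 270 to 440 min carried the pulse. Of the 35 genes tested 33 rose and none was called lower, where 26.2% of all genes rose, and from D to E 30 of 34 rose and none was called lower, where 25.8% of all genes rose. No gene had an unadjusted p under 0.05 in the lower direction in either course, with edgeR or with DESeq2, and DESeq2 called 31 and 28 genes higher. Over the 38 genes the median ratio of pooled CPM was 10.3-fold from 270 to 440 min and 10.7-fold from D to E, with a count of 0 set to a floor of 3 counts per group. The median log2 ratio of pooled CPM over all genes above that floor was -0.21 and -0.42. TMM scaling put the fitted median of all tested genes at 0.13 from 270 to 440 min and RLE scaling at -0.11, and with RLE 32 of the genes rose in each course. The split of all calls moved with it, from 64% to 52.3% higher, and from D to E it went from 62.6% with edgeR to 74.8% with DESeq2. At D to E the fitted median over all genes tested was 0.00, so fitted changes stand above the ratios of CPM: dyf-7 came to 1.42-fold in pooled CPM and to 0.97 in fitted log2 change.

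**Figure D3:**
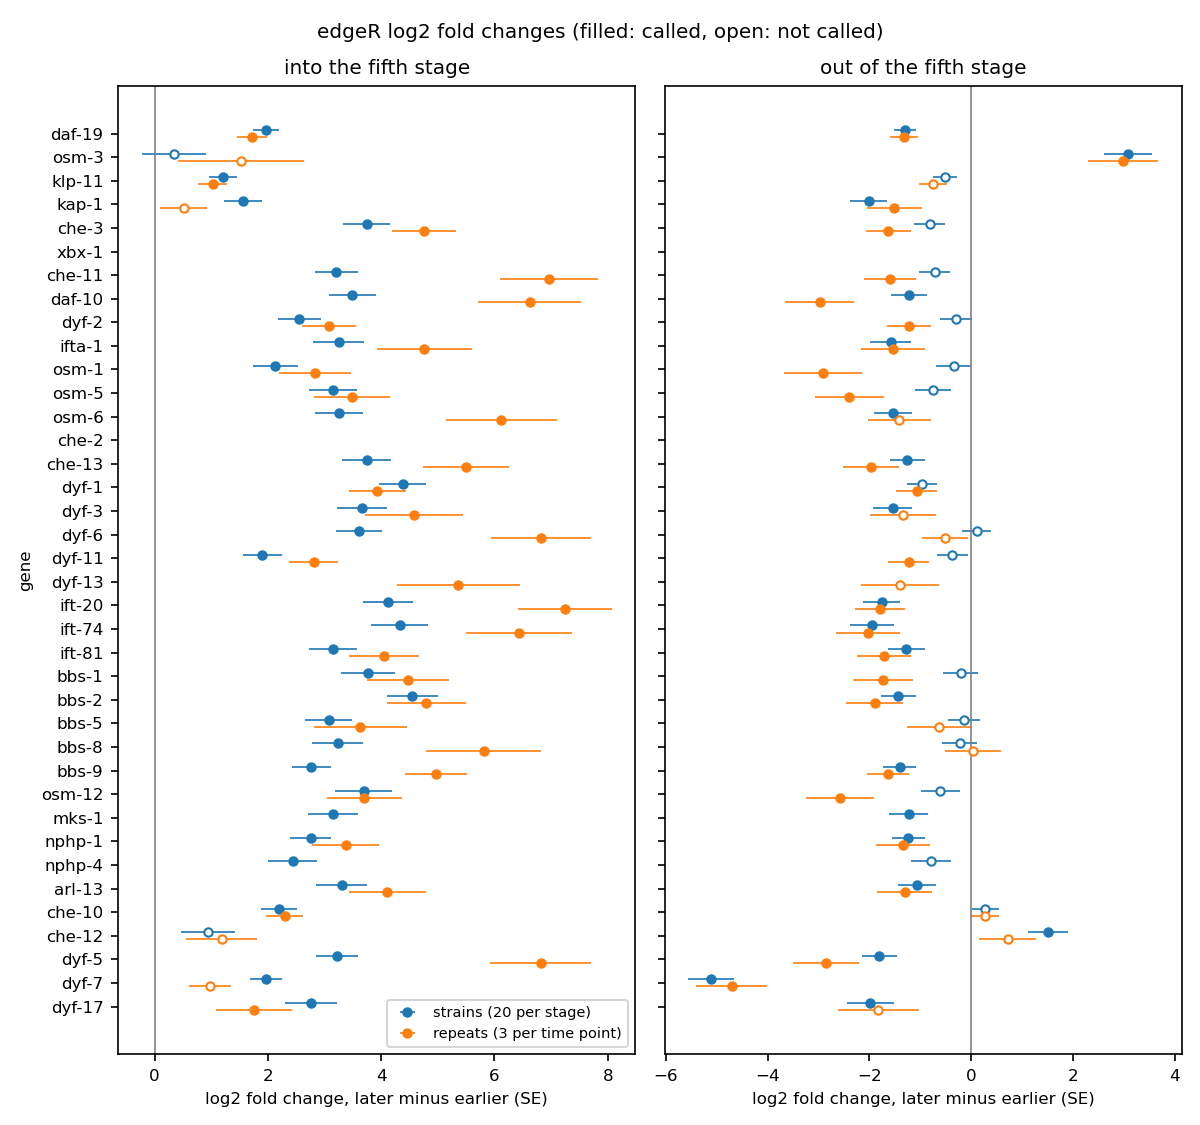
Fitted log2 fold changes (edgeR, later minus earlier, bars are SE) of each tested gene into 440 min or E (left) and out of it (right), for the strains (blue) and the repeats (orange). Filled points were called and open points were not. 33 and 30 genes rose into the stage, and in the right panel osm-3 lies farthest to the right with 3.08 and 2.98, followed in the strains by che-12 (1.5).

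daf-19 rose at this step too. It held 147, 122 and 157 CPM at D and 374, 266 and 396 CPM at E (1.72, SE 0.26, adjusted p = 2.88e-10). In the strains its median library went from 64.7 CPM (range 0 to 227) to 217 CPM (80.0 to 415), higher in 18 of 20 strains (1.97, SE 0.23, adjusted p = 2.42e-14). The D and E libraries did not overlap, while the ranges over strains did.

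Of the motors, che-3, the dynein-2 heavy chain that powers return transport, held 5.45, 0.00 and 1.60 CPM at D and 63.8, 96.3 and 39.6 CPM at E, so that every E library lay above every D library (4.76, SE 0.57, adjusted p = 5.40e-16). Over the strains it went from 6 to 105 counts (3.74, SE 0.41, adjusted p = 2.42e-15), higher in 16 strains and lower in none. xbx-1, the dynein-2 light intermediate chain, was too low to test, with 1 and 30 counts in the strains, a ratio of 25.9 in pooled CPM (interval 4.30 to 1056). With no filter on low counts it was called higher in both courses, as were che-2 in both, dyf-13 in the strains and mks-1 and nphp-4 in the repeats.

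klp-11 rose less. It held 156, 115.6 and 181 CPM at D and 214, 276 and 195 CPM at E (1.02, SE 0.26, adjusted p = 0.000356), and in the strains the log2 change was 1.21 (SE 0.24, adjusted p = 5.79e-06). These values lie near the 2-fold threshold, and in the strains DESeq2 gave 0.91 and the fit without the 8 rerun libraries 0.88. From D to E the call was lost with no filter on low counts (0.83) and without replicate 2 (0.80). kap-1 rose in the strains, from 32 to 89 counts (1.56, SE 0.33, adjusted p = 1.79e-05), but not from D to E, where it held 36.4, 27.2 and 36.9 CPM and then 22.8, 56.5 and 21.3 CPM (0.51, SE 0.42, adjusted p = 0.319).

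All 4 complex A genes rose in both courses. dyf-2 held 3.64, 13.6 and 12.8 CPM at D and 45.6, 79.6 and 42.7 CPM at E, without overlap (3.08, SE 0.48, adjusted p = 1.08e-09), and 14 and 92 counts in the strains (2.56, SE 0.38). che-11 and daf-10 had no count in the 3 D libraries and rose at least 20.2-fold and 15.9-fold over the floor. In the strains che-11 went from 7 to 80 counts, daf-10 from 4 to 70 and ifta-1 from 4 to 53.

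The same held for complex B, where all 11 genes tested in the strains and all 12 tested in the repeats rose. dyf-11, which has the most repeat counts of the complex, held 14.5, 6.80 and 14.4 CPM at D and 100.3, 69.1 and 48.8 CPM at E (2.81, SE 0.44, adjusted p = 9.06e-10), and 23 and 86 counts in the strains (1.90, SE 0.34, adjusted p = 6.40e-07). No D library reached the lowest E library. Each of ift-20, ift-74, dyf-6, osm-6 and dyf-13 was at 0 in all D libraries and at least 24.5-, 14.2-, 18-, 10.7- and 6.44-fold higher at E. In the strains dyf-1 went from 3 to 105 counts, higher in 19 strains and lower in none (30.2-fold in pooled CPM, interval 10.05 to 149, adjusted p = 1.84e-19). ift-74 had no count in the 20 libraries at 270 min and 50 counts at 440 min, at least 14.4-fold higher. che-2 was too low to test. It had no count at 270 min and 27 at 440 min in the strains, at least 7.76-fold higher, but 4 counts at E and 10 at F.

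All 6 BBSome genes rose in both courses. bbs-9 held 1.82, 6.80 and 3.21 CPM at D and 72.9, 90.1 and 73.2 CPM at E (4.97, SE 0.55, adjusted p = 3.37e-18), the smallest adjusted p of the 30. In the strains it went from 16 to 125 counts (2.77, SE 0.35, adjusted p = 2.81e-12). bbs-2 was counted in 1 of 20 libraries at 270 min and in 20 of 20 at 440 min, where the lowest held 10.5 CPM and the median 37.0 CPM (60.4-fold in pooled CPM, interval 10.5 to 2418, adjusted p = 2.90e-17). As a sum, the BBSome held 10.9, 13.6 and 9.62 CPM at D and 219, 237 and 207 CPM at E.

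The 3 transition zone genes rose in the strains. nphp-1 went from 13 to 82 counts (2.75, SE 0.36, adjusted p = 2.69e-11), mks-1 from 4 to 43 and nphp-4 from 6 to 38, the last not called with DESeq2 (1.83, adjusted p = 0.201). In the repeats nphp-1 held 1.82, 6.80 and 6.41 CPM at D and 50.1, 37.7 and 27.4 CPM at E, without overlap (3.37, SE 0.60, adjusted p = 9.36e-08). mks-1 and nphp-4 were untested there, with 1 and 18 counts and 2 and 14 counts, and neither overlapped between D and E.

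Of the others, dyf-5, a kinase gene known to limit cilium length, went from 10 to 87 counts in the strains and was at 0 in all D libraries against 50.1, 39.8 and 33.5 CPM at E. arl-13, a small GTPase of the ciliary membrane, went from 3 to 47 counts (13.5-fold in pooled CPM, interval 4.35 to 67.9, adjusted p = 1.04e-10). che-10 rose again (2.20, SE 0.32 in the strains and 2.30, SE 0.33 in the repeats). dyf-17 held 10.9, 0.00 and 3.21 CPM at D and 13.7, 16.8 and 15.2 CPM at E (1.75, SE 0.67, adjusted p = 0.0214). That call was lost without replicate 2 or 3.

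The genes not called at this step differed in how they missed it. dyf-7 rose in the strains (1.97, SE 0.29, adjusted p = 9.46e-10), and in the repeats it held 41.8, 40.8 and 48.1 CPM at D and 59.3, 64.9 and 64 CPM at E, which did not overlap but came to less than 2-fold (0.97, SE 0.37, adjusted p = 0.0205, and called with RLE scaling at 1.25 and with DESeq2 at 1.26). che-12 was not called in the strains (11 and 19 counts, 0.95, SE 0.48, adjusted p = 0.119) or in the repeats (1.18, SE 0.62, adjusted p = 0.108, and called with RLE scaling at 1.46). osm-3 had 3 and 4 counts in the strains and 2 and 4 in the repeats, with count ratios of 1.15 (interval 0.195 to 7.85) and 2.58 (0.369 to 28.5).

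After the pulse most of the genes fell. From 440 to 650 min 18 of the 35 genes fell and 2 rose, where 13% of all genes fell and 24.2% rose. From E to F 23 of 34 fell and 1 rose, where 15.5% of all genes fell and 21.9% rose. The median pooled CPM of the 38 genes was 3.02-fold lower at 650 than at 440 min and 3.23-fold lower at F than at E, while the median log2 ratio of all genes was -0.20 and -0.08. DESeq2 called 13 falls in the strains but 3 from E to F (daf-19, bbs-9 and dyf-7). In the strains the fitted falls are smaller than the falls in CPM, since the median of all genes was 0.17 in the fit. In the repeats the fall was read against an F group in which 1 count of replicate 2 was worth 8.09 CPM, since that library held 123622 counts.

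daf-19 fell together with the transport genes. It went from 374, 266 and 396 CPM at E to 106, 121 and 133 CPM at F (-1.32, SE 0.27, adjusted p = 5.91e-06), and in the strains it was lower at 650 min in 20 of 20 (3.51-fold lower in pooled CPM, log2 change -1.31, SE 0.22, adjusted p = 7.07e-08). No F library reached the lowest E library. It did not fall further, with 103.9, 183 and 77.4 CPM at G (0.07, SE 0.30, adjusted p = 0.949) and more at 830 than at 650 min in 13 of 20 strains (0.16, SE 0.24, adjusted p = 0.702).

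By role, the falls in the repeats took in all 4 complex A genes, 8 of 12 complex B genes, 4 of 6 BBSome genes, che-3 and nphp-1. In the strains they took in 2 of 4 complex A genes (daf-10 and ifta-1), 6 of 11 complex B genes, 2 of 6 BBSome genes (bbs-2 and bbs-9) and 2 of 3 transition zone genes (mks-1 and nphp-1). che-3 held 20.6, 16.2 and 19.3 CPM at F, all below its E libraries (-1.63, SE 0.44, adjusted p = 0.000798), and in the strains its fall missed the 2-fold threshold (-0.82, SE 0.31, adjusted p = 0.0224, and -1.08 in a fit to the 2 stages alone). bbs-9 fell to 15.5, 16.2 and 29.8 CPM at F (-1.63, SE 0.42, adjusted p = 0.000351) and by 1.41 on the log2 scale in the strains (SE 0.32). ift-20 went from 45.6, 67.0 and 45.7 CPM at E to 12.9, 8.09 and 15.8 CPM at F and from 85 to 18 counts in the strains, lower in 18 of 20. daf-19, osm-3, dyf-7, che-3, bbs-9, ift-20, dyf-5, daf-10 and osm-1 kept their calls from E to F whichever replicate was left out, while nphp-1 lost its call without any one of them (adjusted p 0.0520 to 0.361). With 1 replicate left out, 16 to 17 genes were called.

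Some of the genes were not called lower in either course. dyf-6 had 67 and 54 counts at 440 and 650 min (0.11, SE 0.29, adjusted p = 0.916), bbs-8 had 49 and 31 (-0.23, SE 0.35, adjusted p = 0.629) and bbs-5 had 43 and 27 (-0.14, SE 0.31, adjusted p = 0.763). From E to F their changes were -0.52 (SE 0.45), 0.04 (SE 0.55) and -0.63 (SE 0.63). che-10 held 109, 184 and 103.6 CPM at E, 209, 72.8 and 117 CPM at F and 69.3, 103 and 129 CPM at G, and these ranges overlapped (E to F 0.27, SE 0.28, adjusted p = 0.476). klp-11 had a fitted fall of under 2-fold in both courses (-0.52, SE 0.23, adjusted p = 0.0563, and -0.74, SE 0.28, adjusted p = 0.0192), and in pooled CPM it was 0.437 and 0.522 times its level before.

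dyf-7 fell to near 0. It went from 59.3, 64.9 and 64 CPM at E to 2.58, 0.00 and 1.75 CPM at F, and from 148 counts over the 20 strains at 440 min to 1 count at 650 min. The log2 change was -4.70 (SE 0.70, adjusted p = 1.30e-10) in the repeats and -5.11 (SE 0.45, adjusted p = 3.99e-21) in the strains, lower in 18 strains and higher in 1. The ratio of the strain counts was 154-fold in pooled CPM, with an interval of 27.2 to 6114 because it rests on 1 count.

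**Figure D4:**
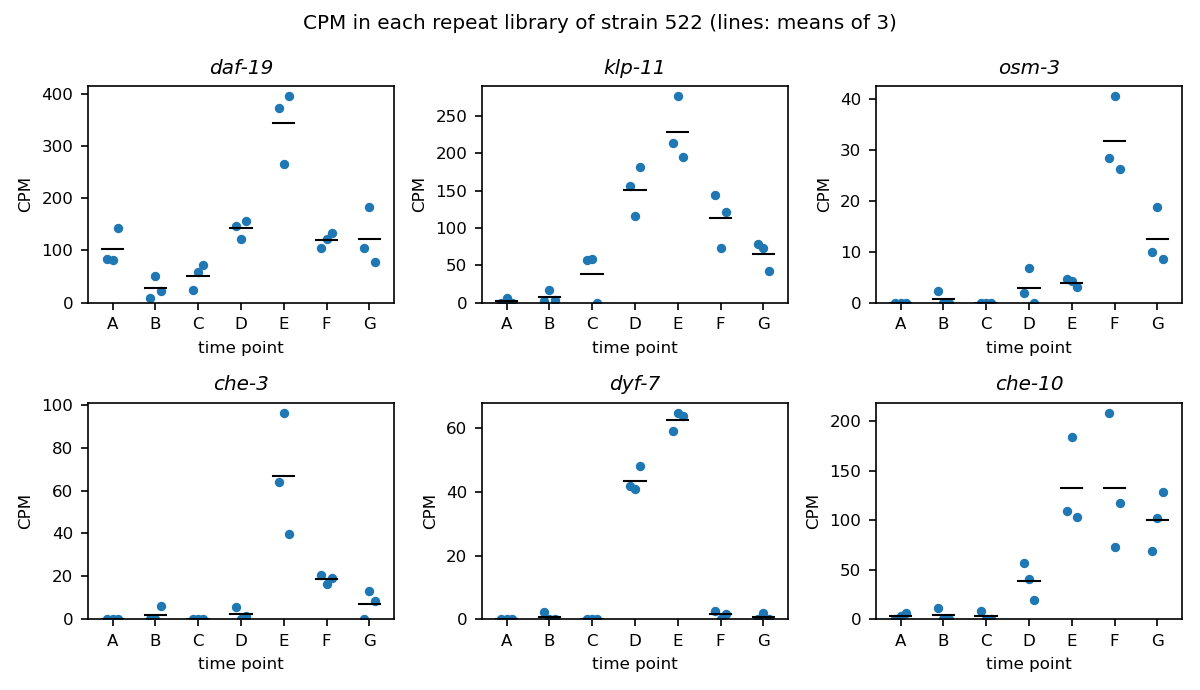
CPM (linear axes that start at 0 and differ between panels) of 6 ciliary genes in each of the 21 libraries of line 522, by time point. Points are libraries and lines are means of 3. daf-19, klp-11 and che-3 are highest at E, osm-3 at F (28.4, 40.4 and 26.3 CPM), dyf-7 is seen at D and E and near 0 elsewhere, and che-10 stays high at F.

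The homodimeric kinesin gene osm-3, which codes for the motor of the outer part of sensory cilia, went the other way. It held 4.56, 4.19 and 3.05 CPM at E and 28.4, 40.4 and 26.3 CPM at F, without overlap (2.98, SE 0.70, adjusted p = 8.09e-05). In the strains it was counted in 4 of 20 libraries at 440 min and in 14 of 20 at 650 min, with 4 and 45 counts (3.08, SE 0.47, adjusted p = 4.81e-09), higher in 14 strains and lower in 1. At 830 min it had 38 counts (-0.21, SE 0.36, adjusted p = 0.771), and at G it held 9.89, 18.7 and 8.60 CPM.

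Set against klp-11, the motor subunit of the other kinesin-2, osm-3 made up a larger share of the counts of both genes after the pulse than during it, a comparison chosen after the values were seen and given with no test. Over the strains the share was 7.69% at 60 min (interval 0.195% to 36.03%), 7.5% at 180 min (2.80% to 15.6%) and 1.74% at 270 min (0.361% to 5.01%), on 1, 6 and 3 counts of osm-3. It was 0.952% of the pooled counts at 440 min (interval 0.260% to 2.42%), 19.2% at 650 min (14.4% to 24.9%) and 31.4% at 830 min (23.3% to 40.5%). In the repeats it was 2.08%, 1.49% and 1.54% in the E libraries, 16.4%, 35.7% and 17.9% in the F libraries and 11.1%, 20.4% and 16.7% in the G libraries. The E libraries lay below all F and G libraries, and the pooled share was 18.8% at F and 17.8% at G, so that it did not grow further as it did in the strains. osm-3 shares exon sequence with algn-14 on the same strand and K09B3.1 on the opposite strand in the annotation, and whether counting used strand is not given in the sources used here, so its counts are uncertain to that extent.

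che-12 was the other gene called higher after 440 min, with 19 and 50 counts (1.5, SE 0.39, adjusted p = 0.000646, higher in 14 strains and lower in 3). From E to F it held 4.56, 25.1 and 9.14 CPM and then 30.9, 8.09 and 19.3 CPM, overlapping groups (0.72, SE 0.55, adjusted p = 0.318). In the strains DESeq2 gave it an adjusted p of 0.0508.

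From 650 to 830 min 8 of the 35 genes fell and none was called higher, where 13.2% of all genes fell. They were dyf-6 (54 to 19 counts, -1.44, SE 0.35, adjusted p = 0.000485), klp-11 (189 to 83), che-10 (234 to 105), dyf-2, che-3, bbs-1, mks-1 and nphp-1. The fit with strain as a block called 5 of the 35, DESeq2 called 3, and 5 were called without the 8 libraries of which a rerun was deposited. From F to G edgeR called none of 34 in either direction, where 8.51% of all genes fell. At an unadjusted p under 0.05, 3 genes were lower by edgeR and 1 by DESeq2, which also called none.

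Many other ciliary genes, from a list of 47 of which 45 are in the tables, rose with the 38, but their summed level changed little. The sum was 1578 pooled CPM at 270 min (libraries 1097 to 2105) and 1884 at 440 min (1004 to 2311). In the repeats it was 2015 at D and 2195 at E. Pooled CPM was highest at 440 min for 21 of the 34 tested and at E for 20 of 32. From 270 to 440 min 23 of 34 rose (all genes, 26.2%) and 1 fell, with a median log2 change of 2.92 against 0.13 for all genes tested. From D to E 22 of 32 rose (all genes, 25.8%) and 2 fell (median 3.37 against 0.00). The transition zone genes stood among them: mks-2, mks-3, mks-5, mks-6, mksr-2, tmem-231, tmem-107, jbts-14 and tctn-1 rose in both courses, with 58 counts of jbts-14 at 440 min against 0 at 270 min and log2 changes of 3.10 to 4.29 for the others in the strains. mks-2, mks-3, mks-5, tmem-231 and tctn-1 were also called higher from 180 to 270 min, where 6 of 34 rose against 12.1% of all genes, while DESeq2 called 1 of the 34 higher and 1 lower. The gene that fell in both courses was hyls-1, which codes for a centriolar protein needed for cilium assembly (-1.63 and -1.65), although DESeq2 called 0 of the 32 lower from D to E. From 440 to 650 min 11 of the 34 fell and 3 rose, the 3 being the alpha tubulin genes tba-6 (1.09) and tba-9 (1.17) and the kinase gene cdkl-1 (2.38), while DESeq2 called 7 lower and 0 higher.

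Genes from a list for sensory signalling in ciliated neurons rose into the pulse and again after it. Whether the listed genes are limited to such neurons was not tested. Of 24 listed, 7 could be tested in the strains and 8 in the repeats. From 270 to 440 min 4 of 7 rose (median log2 change 1.27, all genes 26.2%) and from D to E 5 of 8 (2.98, all genes 25.8%), none being called lower. From 440 to 650 min 5 of 7 rose (median 2.25, all genes 24.2%) and none was called lower. The 5 were the guanylyl cyclase gene daf-11 (1.17), the G protein genes gpa-2 (2.25) and gpa-3 (4.07), the innexin gene che-7 (2.50) and the glutamate transporter gene eat-4 (0 to 69 counts). From E to F 6 of 8 rose (median 2.05, all genes 21.9%), among them the channel gene ocr-2 (2.08). DESeq2 called 1 of 7 higher from 270 to 440 min, 3 of 7 from 440 to 650 min, and 4 of 8 at both D to E and E to F. Their summed pooled CPM was highest at 650 min and at F, 1 stage after the ciliary sum.

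Genes from lists for glia and for all neurons, the ciliated ones among them, also changed at these steps. The glial sum rose and fell with the pulse, while the pan-neuronal sum kept rising after it. Their part in the pulse was not tested. Of 14 genes tested from a list for the amphid and phasmid glia, which wrap the ciliated endings, 8 rose from 270 to 440 min and none was called lower, and 8 fell and 1 rose from 440 to 650 min. Their summed level ran from 419 to 1024 CPM over the libraries at 270 min, from 761 to 1797 CPM at 440 min and from 175 to 756 CPM at 650 min. daf-6 (4.80, then -1.65), fig-1 (4.41, then -3.71) and che-14 (2.32, then -2.67) were called at both steps. Of 15 pan-neuronal markers tested, 11 rose from 270 to 440 min and 10 from 440 to 650 min, none was called lower at either step, and their sum ran from 248 to 785, from 791 to 1688 and from 1759 to 4065 CPM over the libraries of the 3 stages. In the repeats 8 of 12 glial genes rose and 1, mls-2, fell from D to E (-1.24), and 1 rose and 9 fell from E to F. Among all genes 25.8% rose from D to E, and 21.9% rose and 15.5% fell from E to F. Of the 15 pan-neuronal markers 10 rose from D to E, and 9 rose and 1, ric-19, fell from E to F (-1.01). With RLE scaling or DESeq2 neither of these single falls was called.

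**Figure D5:**
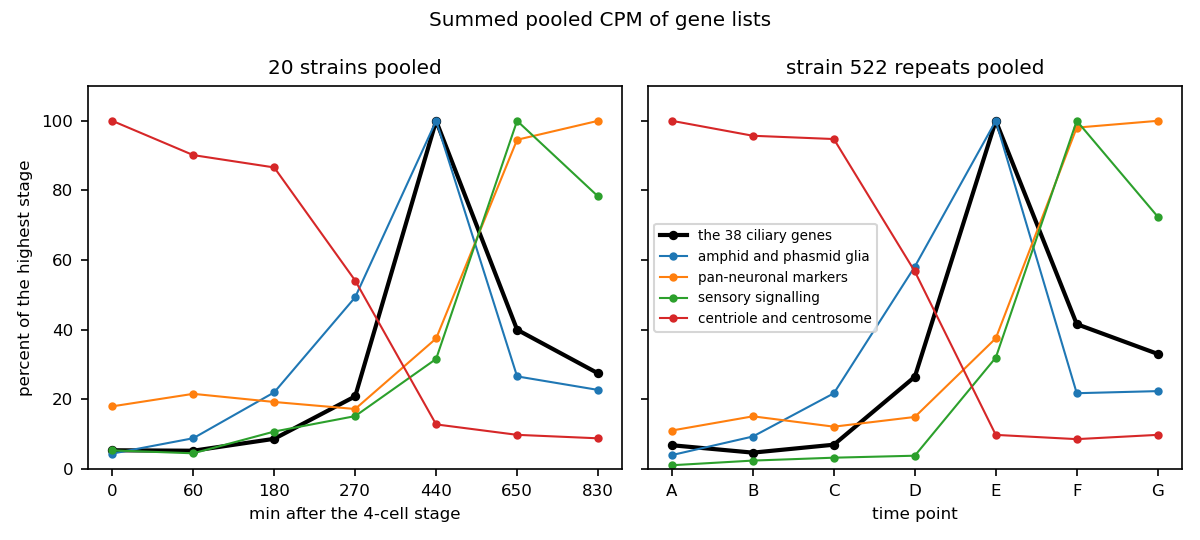
Summed pooled CPM of the 38 ciliary genes (black) and of the tested genes of 4 other lists, each as a percentage of its own highest stage, in the strains (left) and the line 522 repeats (right). The ciliary and glial sums are highest at 440 min and E, sensory signalling at 650 min and F, pan-neuronal markers at 830 min and G, and centriole genes at 0 min and A.

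Of the 38 genes, 16 overlap another protein-coding gene by exon sequence in the annotation, 11 on the opposite and 6 on the same strand, osm-3 on both. Among them are klp-11 with F20C5.11, dyf-5 with ppfr-1, arl-13 with rla-1 and ift-20 with spe-5, whose counts may hold reads of the neighbour.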

How the data were processed

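Gene counts per library were deposited by the authors as raw counts. Demultiplexing used CASAVA 1.8 and alignment Bowtie2 2.1.0, per the submitters' processing notes, while the sources used here name no counting program, genome build or strand setting. In the repeats' table, reads in no gene came to 17.8% to 47.7% of gene counts, reads in no gene and ambiguous reads together. Unaligned reads came to 38.8% to 70.2% of those reads and the unaligned ones together. Such rows were left out of library sizes. 44 columns were not used: 7 named for other samples, 8 reruns and 29 spike-in columns. Gene names came from RefSeq through locus tags, and no coordinate is printed. Promoter sequences were not analysed here.

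The ciliary genes and lists were chosen with earlier results of these data known. Genes with at least 50 counts over the 140 strain libraries or 30 over the 21 repeats were tested with edgeR 4.0.16 (R 4.3.3, TMM, quasi-likelihood, prior count 0.125), all 7 stages in 1 fit per course, and p-values were adjusted over all genes tested. Exact intervals used Python 3.11.15 and SciPy 1.17.1. The procedure was tested on simulated data. Alternatives were DESeq2 1.42.0, RLE scaling, no filter, edgeR's filterByExpr, a fit to the 2 groups alone, a block for strain or replicate number, and leaving out shallow libraries, each replicate or the 8 rerun libraries (the last chosen after the data were seen). Genes described singly were daf-19 and, in each role, the gene with the most repeat counts and those not called from D to E; others were named after their values were seen.

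Libraries of 1 strain share that strain by design, and their deviations from the stage means correlated with a median r of 0.0524, against -0.00637 between strains (6470 genes). Of the 140 libraries, 38 were closest to their own strain.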

Additional observations from a re-analysis of the deposited data

How the results depend on the processing

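No called change of a ciliary gene reversed its sign under the alternatives run. Counts of ciliary genes called moved by over 1.5 times under the following. With filterByExpr, which keeps 1 of the 38 genes in the strains and 8 in the repeats, 0, 0, 1, 1, 1 and 0 were called at the 6 strain steps in order of time, 8 from D to E and 6 from E to F, fewer of the genes being tested. DESeq2 called 1 at 0 to 60 min, 3 at 60 to 180, 3 at 180 to 270, 3 at 650 to 830 min, 1 at A to B, 3 at C to D and 4 at E to F. Without the 8 rerun libraries 1 was called at 0 to 60 and 5 at 650 to 830 min. With no filter 1 was called at A to B, and with RLE scaling 2 at B to C. The cause was not tested. Leaving out 1 replicate of the repeats gave 1 to 2 calls at A to B, 0 to 1 at B to C, 2 to 5 at C to D, 28 to 30 at D to E, 16 to 17 at E to F and 0 at F to G.

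With strain as a block, 5 genes were called from 650 to 830 min against 8 without it, and the other 5 strain steps gave 2, 7, 10, 33 and 20 calls in each fit. In the repeats the replicate number marks no pairing: same-numbered libraries correlated with a median r of -0.00409, and 2 of 21 were closest to their own number. A replicate block there gave 3, 1, 5, 30, 22 and 0 calls.

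Depth limits single strain libraries, the shallowest of which held 5653 gene counts, and the early stages, where 33 of the 38 genes had at most 3 counts over the 20 strains at 0 min.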

Other observations

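Genes of the centriole and centrosome, from which the basal body derives, fell where the ciliary genes rose most, after a smaller fall before it. Of 15 tested, 13 fell from 270 to 440 min, where 1650 of all 11227 genes tested fell. From D to E 13 of the 15 fell, where 1686 of all 10941 fell, and none of the 15 was called higher at either step. The polo kinase gene plk-1 fell most in the strains (462 to 53 counts, -2.91, SE 0.24) and sas-5, a centriole assembly gene, in the repeats (133 to 5 counts, -3.78, SE 0.52). Their summed pooled CPM was 3066 at 0 min, 1660 at 270 min and 393 at 440 min. From 440 to 650 min none of the 15 was called in either direction, and from E to F pcmd-1 fell (8 counts to 0), while RLE scaling also called 2 of the 15 higher there and DESeq2 1.

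Among 10 genes of other microtubule motors, 4 rose from 270 to 440 min (all genes, 26.2%) and the same 4 from D to E (25.8%). They were the kinesin light chain gene klc-2, the axonal kinesin gene unc-104 (23 to 161 counts, 2.99, SE 0.38), the dynein light chain gene dlc-1 and lis-1. With RLE scaling 3 of the 10 rose and 1 fell from 270 to 440 min. klc-2 fell at the next step in both courses (-1.24 and -1.57). The lists share genes: unc-104 is also a pan-neuronal marker, and tba-5, tba-6, tba-9 and tbb-4 are also among the other ciliary genes. Of 12 alpha and beta tubulin genes tested, 4 rose (all genes, 26.2%) and 2 fell from 270 to 440 min, the 2 being tba-2 (-1.70) and tbb-1 (-1.26). mec-12, an alpha tubulin gene of touch neurons, rose at this step (3.51, SE 0.30) and the next (1.55, SE 0.20), and tba-7 went from 1 to 159 counts from 440 to 650 min.

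Of the other tissue markers, 6 of 8 for muscle, 2 of 8 for epidermis and 6 of 8 for intestine rose from 270 to 440 min. Among all genes 26.2% rose, and the epidermis count lies near that share. Of the intestine markers 1 fell, and with RLE scaling or with DESeq2 4 of the 8 rose and 2 fell. Of 9261 genes with enough counts in the repeats, the 10 whose 7 time point means of log2(CPM + 1) ran most like the median of the ciliary genes had a Pearson r of 0.984 to 0.991, and 367 had an r above 0.9. They were C23H3.9, lron-9, R04B5.6, C34C6.3, C52G5.2, scav-6, nssp-84, sgca-1, C16B8.2 and kqt-2. The strains did not enter that choice, and there C34C6.3 and C16B8.2 were highest at 650 min and the other 8 at 440 min.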
